A study of Mus musculus with 3 samples.

Results

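To view stress from tissue handling in sorted microglia, the transcripts of 8 genes of the integrated stress response and the unfolded protein response (Atf3, Atf4, Atf5, Ddit3, Trib3, Ppp1r15a, Xbp1 and Herpud1) were followed across genotypes and activation states. The 8 genes were taken by name, and all 8 were found among the 15338 genes listed in any of the 3 count files. The 3 libraries were hCD33m, hCD33M and Control, 1 library per genotype, prepared from C57BL/6 mice aged 8 weeks. hCD33M is the long isoform and hCD33m the short isoform of the human sialic acid receptor CD33, each placed behind a floxed stop at the Rosa26 locus and switched on by Cx3cr1-Cre, which acts in microglia and in other Cx3cr1-expressing myeloid cells. The hCD33m line came from a single embryonic stem cell clone. The hCD33m library was from female mice and the hCD33M and Control (wild type) libraries were from male mice, so hCD33m and sex cannot be told apart. Whether the Control mice carried Cx3cr1-Cre, and how many mice were pooled here, is stated in none of the sources read.

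According to the methods for single cell sequencing, brains were perfused and kept cold with Actinomycin D and Triptolide, inhibitors of transcription, and the storage buffer also held Anisomycin, an inhibitor of translation. CD11b+CD45(low)Cx3cr1+ cells were sorted and counted by 3' droplet sequencing, in which each unique molecular identifier (UMI) stands for 1 captured transcript. All 3 libraries had this treatment, so the levels below have no untreated comparison.

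The integrated stress response starts when the kinases PERK, GCN2, HRI or PKR phosphorylate eIF2alpha, which lowers general translation and favours translation of Atf4 and a few other mRNAs with upstream reading frames. The unfolded protein response watches protein folding in the endoplasmic reticulum (ER) through PERK, IRE1 and ATF6, and IRE1 splices Xbp1 mRNA into the form that encodes the active factor. Much of both pathways is set at translation and splicing, so UMI counts at the 3' end give transcript levels only and do not tell the spliced Xbp1 form from the unspliced.

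Promoter sequence is shown for the 4 members whose window held a binding element of these pathways, to place the elements that ATF4, ATF6 and AP-1 are known to bind beside the transcript levels. Each window is the 250 bases before the RefSeq start on GRCm38.p6, 5′ to 3′ on the gene's strand, and capitals mark the match.
Atf3, chr1:191183334-191183583, minus strand: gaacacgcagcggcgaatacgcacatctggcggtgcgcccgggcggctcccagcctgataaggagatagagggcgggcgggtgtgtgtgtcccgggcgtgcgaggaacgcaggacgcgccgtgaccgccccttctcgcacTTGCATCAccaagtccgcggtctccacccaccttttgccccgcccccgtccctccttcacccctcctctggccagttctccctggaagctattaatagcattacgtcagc
Herpud1, chr8:94386179-94386428, plus strand: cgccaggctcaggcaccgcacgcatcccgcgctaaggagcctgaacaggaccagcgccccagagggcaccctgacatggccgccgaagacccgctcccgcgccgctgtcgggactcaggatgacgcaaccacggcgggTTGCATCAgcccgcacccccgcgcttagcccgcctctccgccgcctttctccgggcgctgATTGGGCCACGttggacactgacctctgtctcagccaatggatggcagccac
Ppp1r15a, chr7:45526269-45526518, minus strand: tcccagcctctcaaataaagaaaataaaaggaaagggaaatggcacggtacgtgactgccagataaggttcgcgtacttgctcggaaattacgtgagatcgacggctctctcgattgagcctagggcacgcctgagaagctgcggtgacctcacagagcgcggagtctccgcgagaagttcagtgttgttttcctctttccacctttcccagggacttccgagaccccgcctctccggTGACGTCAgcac
Ddit3, chr10:127290543-127290792, plus strand: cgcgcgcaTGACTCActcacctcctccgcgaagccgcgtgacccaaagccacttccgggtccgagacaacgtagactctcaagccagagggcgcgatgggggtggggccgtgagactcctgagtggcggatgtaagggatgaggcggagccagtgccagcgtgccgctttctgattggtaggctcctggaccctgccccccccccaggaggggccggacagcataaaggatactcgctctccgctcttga

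Both strands were searched for 6 elements. The C/EBP-ATF composite element TGATGNAA, the site type used by ATF4, was found in Atf3 (110 to 103 bases before the start) and in Herpud1 (112 to 105 bases before it), in both as TTGCATCA, and in 3.45% of 32851 RefSeq promoter windows of the same length. Herpud1 also held the ER stress response element II (ATTGG and CCACG with 1 base between) 52 to 42 bases before its start, which 0.0304% of the promoters held. The cyclic AMP response element TGACGTCA stood 12 to 5 bases before the Ppp1r15a start and in 1.55% of promoters. Ddit3 held the AP-1 element TGANTCA 242 to 236 bases before its start, as did 6.75% of promoters somewhere in the window. The unfolded protein response element TGACGTGG (0.563% of promoters) and the ER stress response element (CCAAT and CCACG with 9 bases between, 0.113% of promoters) had no full match in these windows of the 8 genes, and no matches overlapped. The Herpud1 window ended with CCAAT, 9 bases and CCAC, where the window cuts the ER stress response element before its last letter. Whether Herpud1 holds that element across its start therefore could not be read from these windows. The windows of Atf4 (chr15:80254934-80255183), Xbp1 (chr11:5520391-5520640), Trib3 (chr2:152344061-152344310) and Atf5 (chr7:44816659-44816908 and, for a further start, chr7:44815659-44815908) held no match to these letters.

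The libraries held 5707, 5100 and 3482 barcodes (hCD33m, hCD33M and Control), of which 5612, 5046 and 3412 passed the filter on genes and mitochondrial UMIs, with median depths of 5137, 5078.5 and 5436.5 UMIs per cell. Clusters named from marker genes gave 4885, 4554 and 2996 microglia-like cells, or 87.0%, 90.2% and 87.8% of the cells kept. All 10 microglial markers were present in every library, with summed levels of 31456, 29352 and 32376 counts scaled to 1000000 UMIs (CPM), against 382, 423 and 345 CPM for the 10 monocyte markers and 16.2, 11.4 and 10.3 CPM for the 10 markers of border-associated macrophages (BAM). The hCD33m and hCD33M libraries shared 10 barcodes, hCD33m and Control shared 10, and hCD33M and Control shared 7. Since each genotype gave 1 library, genotypes were not tested against each other. The 95% intervals given for levels and ratios (exact Poisson), and those for shares (Clopper-Pearson), cover counting error only, not the spread between mice.

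The order of the 8 levels was shared by the 3 libraries, except that Xbp1 and Herpud1 changed places in Control, where their intervals overlapped, and that Ppp1r15a was above Atf3 only in hCD33m, with overlapping intervals in the other libraries. Xbp1, the transcription factor of the IRE1 arm, was at 222 (217 to 228) CPM in hCD33m, 222 (217 to 228) CPM in hCD33M and 215 (208 to 222) CPM in Control microglia-like cells. Herpud1, which encodes an ER membrane protein of ER-associated degradation, was at 213, 203 and 216 CPM. Atf4, the central transcription factor of the integrated stress response, was at 127 (123 to 131), 129 (125 to 133) and 131 (126 to 137) CPM. These 3 genes ranked between 662 and 1308 among all genes in each library and together held most of the members' UMIs.

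Ddit3, Ppp1r15a and Atf3, which are downstream of ATF4, were lower. Ddit3, which encodes CHOP, a transcription factor of prolonged ER stress, was at 44.2 (41.9 to 46.7), 43.1 (40.7 to 45.7) and 45.7 (42.7 to 48.8) CPM in hCD33m, hCD33M and Control. Ppp1r15a, which encodes GADD34, the inducible subunit that directs a phosphatase to eIF2alpha, was at 33.5 (31.5 to 35.7), 25.2 (23.3 to 27.2) and 31.2 (28.7 to 33.8) CPM. Atf3, a stress-inducible factor of the ATF/CREB family that is also an early response gene, was at 23.9 (22.2 to 25.7), 28.4 (26.4 to 30.5) and 33.4 (30.8 to 36.1) CPM. For Atf3 the intervals of the 3 libraries did not overlap, and for Ppp1r15a that of hCD33M lay below the other two.

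At the low end was Atf5, a factor with upstream reading frames like those of Atf4 and linked to mitochondrial protein stress, at 8.17 (7.17 to 9.27), 6.56 (5.62 to 7.62) and 7.77 (6.57 to 9.12) CPM. Trib3, a pseudokinase gene that ATF4 and CHOP induce together under strong stress, had 12, 12 and 10 UMIs in all microglia-like cells of hCD33m, hCD33M and Control, or 0.407, 0.453 and 0.521 CPM. The 8 genes together summed to 672, 658 and 681 CPM.

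**Figure D1:**
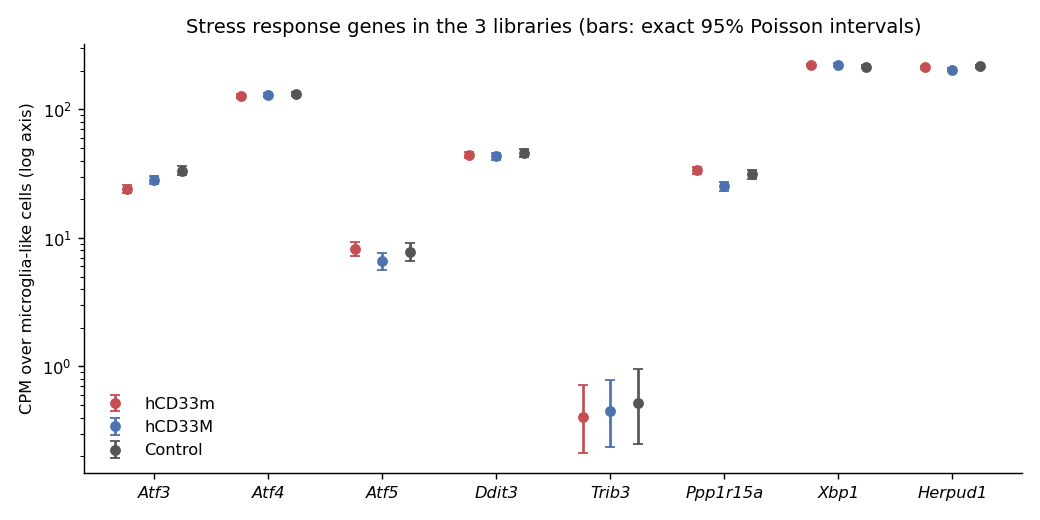
Level of each of the 8 stress genes in microglia-like cells (CPM, log axis) for hCD33m, hCD33M and Control, 1 library each; bars are exact Poisson 95% intervals for counting error only. Xbp1, Herpud1 and Atf4 lie above 100 CPM with nearly level points, Atf3 is lowest in hCD33m (23.9) and highest in Control (33.4), and Trib3 lies below 1 CPM.

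Next, each gene was compared between genotypes as a log2 ratio of CPM. Among the 7 members with at least 5 CPM, 0 differed 1.5-fold or more in either direction in any pair. Over all genes with at least 5 CPM, 1.13% were at least 1.5 times higher and 1.33% at least 1.5 times lower in hCD33m than in Control (9754 genes), 0.770% and 0.442% in hCD33M than in Control (9735 genes), and 0.719% and 1.05% in hCD33m than in hCD33M (9732 genes). The members' median log2 ratio was −0.03 for hCD33m over Control, −0.09 for hCD33M over Control and 0.04 for hCD33m over hCD33M, beside medians of −0.00, 0.01 and −0.01 over all genes. At such shares among all genes, a count of 0 of 7 does not set the members apart.

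Below that fold, Atf3 and Ppp1r15a gave most of the ratios that counting error left clear of 0. For Atf3 the log2 ratio was −0.48 (−0.64 to −0.32) for hCD33m over Control, −0.23 (−0.39 to −0.08) for hCD33M over Control and −0.25 (−0.40 to −0.10) for hCD33m over hCD33M. The hCD33M over Control value depended on a small group of cells described below, without which it was −0.14 (−0.31 to 0.03). For Ppp1r15a it was −0.31 (−0.47 to −0.15) for hCD33M over Control and 0.41 (0.27 to 0.55) for hCD33m over hCD33M, while hCD33m over Control, at 0.10 (−0.04 to 0.25), spanned 0. The 2 genes thus did not order the libraries alike.

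For Xbp1, Atf4, Ddit3 and Herpud1 the ratios were within 0.1 of 0. Xbp1 was at 0.05 (−0.01 to 0.11) for hCD33m over Control, 0.05 (−0.01 to 0.11) for hCD33M over Control and 0.00 (−0.05 to 0.05) for hCD33m over hCD33M. Atf4 was at −0.05 (−0.12 to 0.03), −0.03 (−0.10 to 0.05) and −0.02 (−0.09 to 0.05) in the same pairs, and Ddit3 at −0.05 (−0.17 to 0.08), −0.08 (−0.21 to 0.05) and 0.04 (−0.08 to 0.15). Herpud1 was at −0.03 (−0.08 to 0.03), −0.09 (−0.15 to −0.03) and 0.07 (0.01 to 0.12). Atf5, with far fewer UMIs, was at 0.07 (−0.23 to 0.38), −0.24 (−0.57 to 0.08) and 0.32 (0.03 to 0.61). For Trib3 the hCD33m over Control interval ran between −1.69 and 1.01, so no difference was detectable at this depth.

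Whether other genes of the same pathways differed was asked with lists written from pathway knowledge, counting again the genes at least 1.5-fold apart. At the shares over all genes given above, a count of 0 in lists of this size does not set a list apart. Where intervals clear of 0 are counted below, no share over all genes is given, so those counts do not set a list apart either. Of 17 genes for the eIF2alpha kinases, eIF2 and eIF2B, and for the phosphatase side, 0 were past 1.5-fold in any pair, with medians of 0.01 for hCD33m over Control, −0.02 for hCD33M over Control and 0.00 for hCD33m over hCD33M. The highest ratio for hCD33m over Control was that of Eif2s3x, the X-linked gene of an eIF2 subunit, at 0.25, and the hCD33m library was the female one. The 20 aminoacyl-tRNA synthetases, a class that ATF4 induces under amino acid shortage, likewise had 0 past the fold, with medians of −0.07, −0.03 and −0.02.

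Of the 35 targets of ATF4 and CHOP listed, 23 were measured at 5 CPM or more. For hCD33m over Control 2 of 23 were past 1.5-fold, both higher, beside 1.13% of all genes, and the median was −0.01. These were Ddit4, an inhibitor of mTOR signalling, at 79.9 CPM in hCD33m, 8.9 CPM in hCD33M and 9.3 CPM in Control, and Cdkn1a, which encodes the cell cycle inhibitor p21, at 25.5, 19.5 and 14.1 CPM. Ddit4 is also a glucocorticoid-induced gene and Cdkn1a a p53 target. Cdkn1a was among the leading genes of a cluster led by Cst7, described below, with 155 hCD33m, 159 hCD33M and 3 Control cells. What part that cluster has in the Cdkn1a levels was not tested. Of the amino acid and one-carbon genes that ATF4 controls, none was past the fold upward, and the lowest ratios for hCD33m over Control belonged to the cationic amino acid transporter Slc7a1 (−0.53, with 12.96 CPM in hCD33m, against 18.7 CPM in Control) and the mitochondrial folate enzyme Mthfd2 (−0.52, with 29.6 CPM in hCD33m, against 42.3 CPM in Control). For hCD33M over Control the median of the 23 was −0.15, with 18 below 0 and 12 intervals below 0, against 2 intervals above it. How many of all genes had intervals clear of 0 is not given, so these counts have no baseline. For hCD33m over hCD33M the median was 0.09 with 2 past the fold, Ddit4 and Sesn2, a stress-induced regulator of mTORC1, which had 9.1 CPM in hCD33m, against 6.0 CPM in hCD33M. In that pair 0.719% of all genes were at least 1.5 times higher.

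On the ER side, 0 of 9 sensors and processing proteases, 0 of 24 XBP1 targets and ER degradation genes and 0 of 12 ER chaperones were past 1.5-fold in any pair. The XBP1 target and degradation list had a median of 0.10 for hCD33m over Control, with 12 intervals above 0 and 1 below, and medians of 0.03 for hCD33M over Control and 0.06 for hCD33m over hCD33M. Interval counts on the ER side likewise have no share over all genes beside them. Syvn1, the ubiquitin ligase of ER-associated degradation, had 33.4 CPM in hCD33m cells, against 26.6 CPM in Control (0.33), and Sdf2l1, an ER chaperone cofactor, 157 CPM in hCD33m cells, against 177 CPM in Control (−0.17). Hspa5, which encodes BiP, the chief chaperone of the ER, was at 724 CPM in hCD33m, 613 CPM in hCD33M and 615 CPM in Control, so that hCD33m over Control gave 0.24 (0.20 to 0.27). In the chaperone list 5 intervals were above and 5 below 0 for that pair, with Pdia3 at 617 CPM in hCD33m cells, against 689 CPM in Control. For the sensors and proteases the medians were 0.01, 0.07 and −0.04 for hCD33m over Control, hCD33M over Control and hCD33m over hCD33M.

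Lists of other protein stress were read next. The 10 measured genes of mitochondrial protein stress had a median of −0.12 for hCD33m over Control with 0 past the fold, and −0.05 and 0.01 in the pairs hCD33M over Control and hCD33m over hCD33M. The 11 measured genes of cytosolic heat shock had medians of 0.15, −0.05 and 0.19 for hCD33m over Control, hCD33M over Control and hCD33m over hCD33M. Intervals above 0 numbered 7, 1 and 8 in these pairs, and intervals below 0 numbered 1, 3 and 1, again with no share over all genes beside them. The highest of the 11 for hCD33m over Control was Dnajb1, an Hsp40 co-chaperone gene, at 0.59 (0.45 to 0.74). Dnajb1 had 44.6 CPM in hCD33m, 32.9 CPM in hCD33M and 29.5 CPM in Control and was the only gene of that list past 1.5-fold.

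The early response, glucocorticoid, inflammatory and p53 lists held 3 or more genes past the fold for hCD33m over Control, against at most 2 in a stress list. Over all genes 1.13% were past the fold upward and 1.33% downward in that pair, and the lists differ in size. The lists share genes, so these counts are not separate. Btg2 is in the early response and p53 lists, and Dusp1 in the wider early response and glucocorticoid lists. Ddit4 of the glucocorticoid list and Cdkn1a of the p53 list were also counted among the ATF4 and CHOP targets. Of 9 early response genes that the study took from a cluster of its other experiment on these genotypes, 5 were past 1.5-fold for hCD33m over Control (median 0.61), 0 for hCD33M over Control (−0.05) and 7 for hCD33m over hCD33M (0.75). Fos was at 208 CPM in hCD33m, 63.3 CPM in hCD33M and 87.4 CPM in Control. The 14 measured genes of a wider early response list had medians of 0.11, −0.15 and 0.24. For hCD33m over Control 2 of these were past the fold upward (Dusp1 and Klf4) and 2 downward (Ier3, −0.83, and Myc, −0.71). Of 8 measured genes of the glucocorticoid response, 5, 0 and 4 were past the fold, all higher, with medians of 0.96, −0.03 and 0.92. The 13 measured inflammatory genes had medians of −0.34, −0.01 and −0.13. For hCD33m over Control 3 of them were past the fold downward (Tnf, Ccl3 and Ccl4) and 2 upward (Il1b and Cxcl10), and for hCD33M over Control 2 downward (Ccl4 and Nfkbid) and 2 upward (Il1b and Cxcl10). The 10 p53 targets had medians of 0.18, 0.03 and 0.01, with 3, 0 and 1 past the fold, all higher. Atf3, lowest in hCD33m, lay on the other side of 0 from the 9 early response genes for hCD33m over Control and on the side of Ier3 and Myc. What part the level of those genes has in the Atf3 values was not tested.

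**Figure D2:**
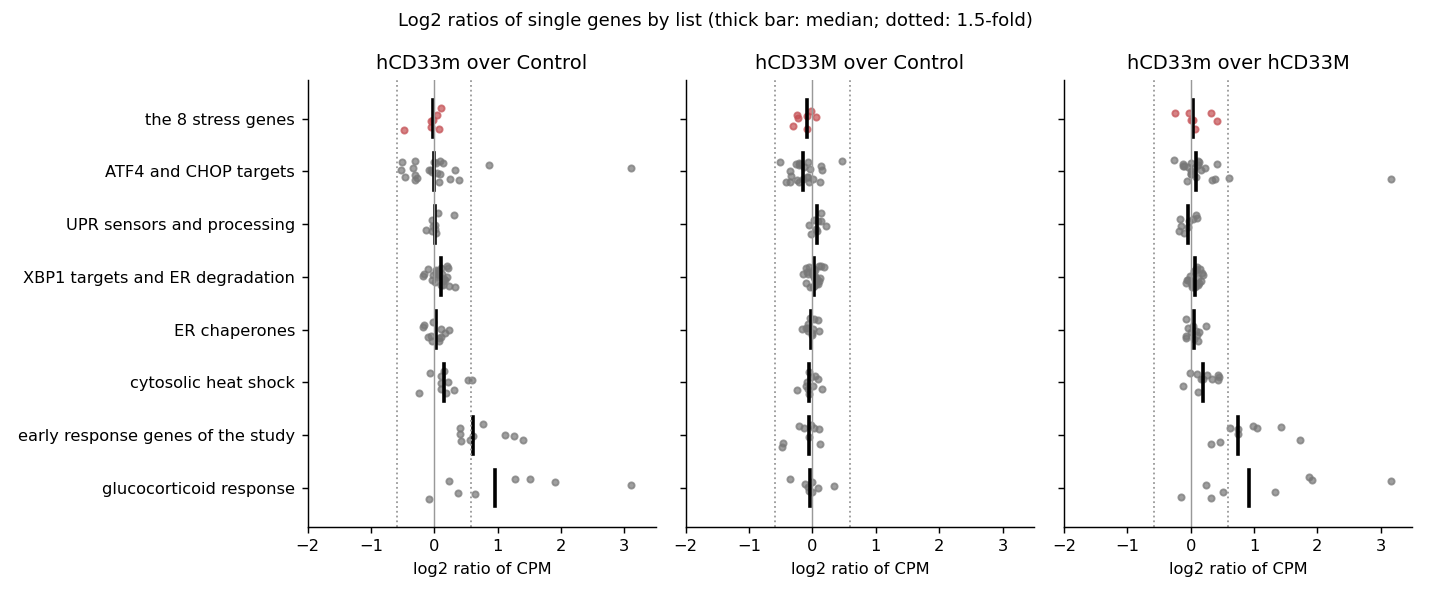
Log2 ratio of CPM in microglia-like cells for each measured gene of the pathway lists (points) and the list median (line), for hCD33m over Control, hCD33M over Control and hCD33m over hCD33M. The 7 measured members and the ER lists sit around 0, while the early response (median 0.61) and glucocorticoid (median 0.96) lists lie above it for hCD33m over Control. In that pair the ATF4 and CHOP targets have a median of −0.01, with Ddit4 and Cdkn1a past 1.5-fold. The cytosolic heat shock genes have a median of 0.15 there, with Dnajb1 past 1.5-fold.

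To ask how the genes varied with activation state, microglia-like cells were divided into finer clusters from variable genes that held none of the 8 members, none of the listed stress, early response and inflammatory genes and no sex-linked genes. This gave 12 microglia-like clusters over 4839, 4496 and 2956 cells. Since the cells themselves made the clusters, the levels are a description with no test. A chemokine cluster with leading genes Ccl4, Ccl3 and Lpl held 117 hCD33m, 74 hCD33M and 68 Control cells, or 2.42%, 1.65% and 2.30% of microglia-like cells, and 9 of the 10 microglial markers were there at 0.5 times or more of their level over all kept cells. Ccl4 and Ccl3, chemokines that draw in myeloid cells and lymphocytes, were not among the clustering genes, and Atf3 was among the 10 leading genes of the cluster.

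Among members measured at 5 CPM or more, Atf3 had the largest difference between a cluster and the other cells that was shared by the 3 libraries. It was at 185 CPM in the hCD33m, 263 CPM in the hCD33M and 325 CPM in the Control cells of the chemokine cluster, against 18.9, 23.8 and 26.2 CPM in the other microglia-like cells of the same libraries. The folds were 9.76, 11.02 and 12.37, or log2 ratios of 3.29 (3.02 to 3.54), 3.46 (3.18 to 3.74) and 3.63 (3.36 to 3.89). The size depended on the clustering: with the coarser resolution of 0.5 the log2 ratios were 1.88, 1.30 and 1.69, and with a stricter cell filter 2.31, 2.11 and 3.35, while the direction stayed. Under the stricter filter the cluster also had Cst7 among its leading genes and held 233 hCD33m, 174 hCD33M and 69 Control cells. The values of the 3 libraries there may thus cover unlike mixtures of cells, which was not tested. The cluster held 22.9%, 17.3% and 23.6% of all Atf3 UMIs of microglia-like cells but 2.94%, 1.87% and 2.44% of all UMIs. Of the cells with 10 or more Atf3 UMIs, 5 of 6 in hCD33m, 4 of 4 in hCD33M and 6 of 6 in Control were in it, and a single cell reached 22, 32 and 22 UMIs.

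Among the other members measured at 5 CPM or more the differences were smaller. Atf4 was at 163, 165 and 200 CPM inside it, against 126, 128 and 130 CPM outside (log2 ratios 0.37, 0.36 and 0.62, all intervals above 0). Ddit3 was at 61.3, 57.0 and 101 CPM inside, against 43.7, 42.9 and 44.2 CPM outside, with intervals of 0.06 to 0.89 in hCD33m, −0.18 to 0.95 in hCD33M and 0.74 to 1.62 in Control. Herpud1 was at 244, 214 and 314 CPM inside and 212, 203 and 214 CPM outside, with log2 ratios of 0.21, 0.08 and 0.55. Its hCD33M interval (−0.22 to 0.35) spanned 0. Trib3 had 1, 3 and 3 of its 12, 12 and 10 UMIs there, with log2 ratios of inside to outside of 4.13 (1.61 to 6.13) in hCD33M and 4.10 (1.52 to 6.23) in Control. In hCD33m the Trib3 ratio was 1.58 (−3.84 to 4.37), which spanned 0.

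The remaining members did not share that pattern. Xbp1 was at 224 CPM in hCD33m, 240 CPM in hCD33M and 155 CPM in Control inside the cluster, against 222, 222 and 216 CPM outside (0.01, 0.11 and −0.48, −0.84 to −0.14). Ppp1r15a was at 38.2, 32.6 and 19.4 CPM inside and 33.5, 25.1 and 31.6 CPM outside, and all 3 intervals spanned 0. Atf5 had 6, 3 and 1 UMIs there.

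Between genotypes, Atf3 was lower in hCD33m than in Control both inside the chemokine cluster (−0.81, −1.14 to −0.48) and outside it (−0.47, −0.65 to −0.29). For hCD33M over Control the values were −0.31 (−0.66 to 0.04) inside and −0.14 (−0.31 to 0.03) outside, and both intervals spanned 0. Ppp1r15a outside the cluster was at −0.33 (−0.50 to −0.17) for hCD33M over Control and 0.42 (0.27 to 0.56) for hCD33m over hCD33M. Ddit3 inside the cluster was at −0.72 (−1.32 to −0.12) for hCD33m over Control and −0.83 (−1.56 to −0.12) for hCD33M over Control, on 53, 28 and 47 UMIs. Herpud1 was at −0.36 (−0.67 to −0.05) and −0.55 (−0.93 to −0.18) in these pairs inside the cluster, and Xbp1 was higher there, at 0.54 (0.14 to 0.95) and 0.63 (0.20 to 1.08).

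**Figure D3:**
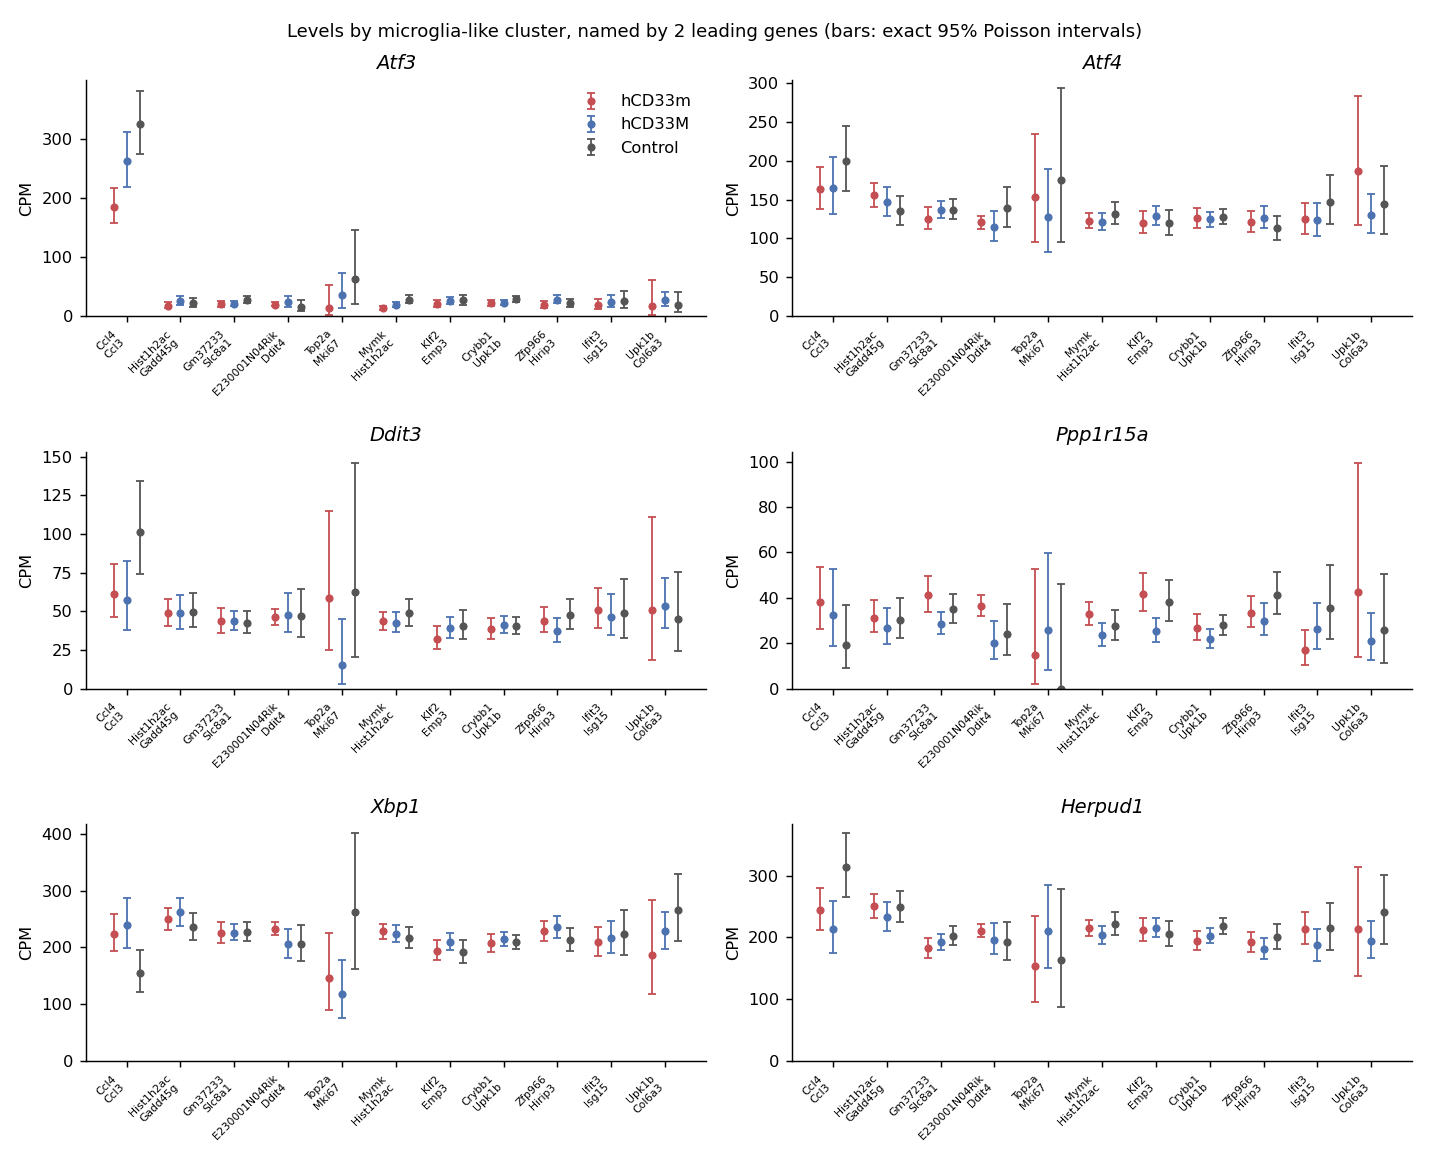
Level (CPM) of 6 stress genes in microglia-like clusters for hCD33m, hCD33M and Control, with exact Poisson 95% intervals for counting error. Clusters are labelled by leading genes, and the chemokine cluster is leftmost. Atf3 stands at 185, 263 and 325 CPM in the chemokine cluster, while Xbp1, Herpud1 and Atf4 stay near their whole-library levels in most clusters.

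In the remaining clusters, apart from Trib3 and Atf5 values on few UMIs, the log2 ratios were smaller than that of Atf3 in the chemokine cluster. Atf3 was lower in the cluster of high UMI counts led by Mymk than in the other cells of hCD33m (−0.88, −1.25 to −0.52) and of hCD33M (−0.62, −0.99 to −0.28). With the chemokine cluster taken out of those other cells, a comparison added after the data were seen, the values were −0.50 (−0.88 to −0.14) and −0.35 (−0.71 to 0.00). Herpud1 was higher in the cluster led by Hist1h2ac than in other microglia-like cells of all 3 libraries (250, 233 and 249 CPM against 209, 201 and 213 CPM), and Atf3 and Atf4 in the chemokine cluster were the only other cases among the 8 members and these clusters in which the intervals of all 3 libraries were clear of 0 on the same side. In the cluster led by Cst7, a gene of activated microglia, Herpud1 was at 283 CPM over 155 hCD33m cells and 247 CPM over 159 hCD33M cells (0.43 and 0.29 over the rest), and the 3 Control cells gave no usable value. The largest hCD33m cluster, led by E230001N04Rik and Ddit4, with the X-linked Tsix and Xist and with Fosb and Fos among its 10 leading genes, held 1368 hCD33m, 242 hCD33M and 149 Control cells. Atf3 was at 19.8, 23.5 and 15.7 CPM and Ppp1r15a at 36.3, 20.3 and 24.2 CPM in it, so neither member stood high there. In the interferon cluster led by Ifit3, Ppp1r15a was at 16.9, 26.3 and 35.6 CPM, below the other hCD33m cells only in hCD33m (−1.02, −1.72 to −0.40).

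The tie between Atf3 and the chemokines was also read cell by cell, after cells had been thinned to 2000 UMIs so that depths were equal, leaving out 53 hCD33m, 45 hCD33M and 34 Control cells of lower depth. Among cells with no Ccl4 UMI, 3.63% of hCD33m, 4.37% of hCD33M and 4.56% of Control cells had an Atf3 UMI. With 1 to 4 Ccl4 UMIs the shares were 11.8%, 7.32% and 9.29% (127, 123 and 140 cells), and with 5 or more they were 47.1% (23.0% to 72.2%), 54.5% (23.4% to 83.3%) and 83.3% (51.6% to 97.9%), over 17, 11 and 12 cells. Atf3 stood at 618, 1045 and 1167 CPM in those last cells. The shares with a Ppp1r15a UMI were 5.95%, 4.69% and 5.16% without Ccl4 and 11.8%, 9.09% and 8.33% at 5 or more. Herpud1 was at 529, 636 and 500 CPM in the cells with 5 or more Ccl4 UMIs, against 217, 203 and 225 CPM without any.

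**Figure D4:**
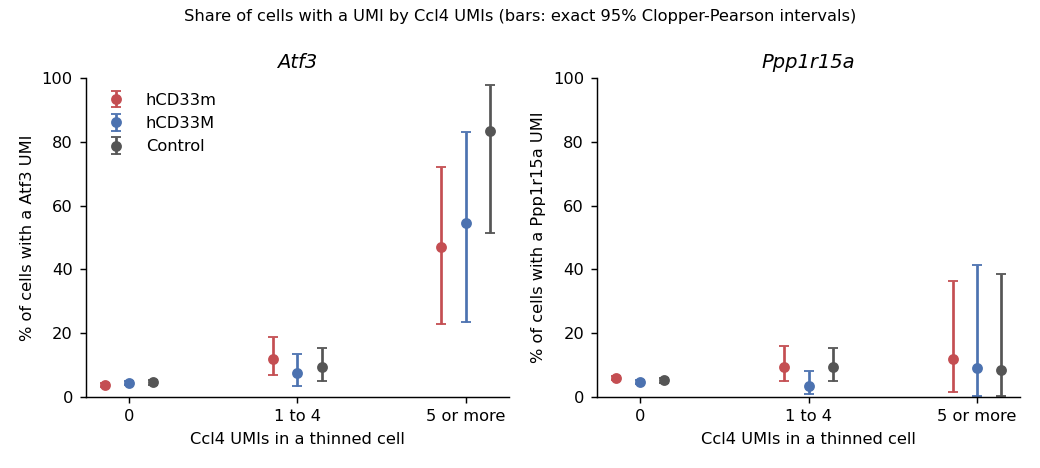
Share of thinned microglia-like cells (%) with at least 1 UMI of Atf3 or Ppp1r15a, by the number of Ccl4 UMIs in the cell, for hCD33m, hCD33M and Control, with Clopper-Pearson 95% intervals. The Atf3 share reaches 47.1%, 54.5% and 83.3% at 5 or more Ccl4 UMIs, on 17, 11 and 12 cells, while the Ppp1r15a share is at most 11.8%.

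Next, cells were binned by their summed UMIs of the study's 9 early response genes, again after thinning. The highest bin, with 12 to 52 such UMIs, held 39.6% of hCD33m, 13.02% of hCD33M and 16.4% of Control cells. Ppp1r15a was the member that went with this score in all 3 libraries. It was at 45.2, 34.9 and 50.4 CPM in the highest bin, against 24.6, 18.3 and 24.4 CPM in the lowest (0 to 5 UMIs), with log2 ratios of 0.88 (0.34 to 1.46), 0.93 (0.33 to 1.53) and 1.05 (0.45 to 1.64). Within bins, Ppp1r15a in hCD33m over Control was at 0.01, 0.18, −0.40 and −0.16 in ascending order of the score, and all 4 intervals spanned 0. For hCD33m over hCD33M it was at 0.43, 0.33, −0.60 (−1.16 to −0.04) and 0.37, so that the sign was not shared by the bins and the other intervals spanned 0.

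Atf3 did not follow the score in the same way, at 26.9, 38.3 and 42.2 CPM in the highest bin against 27.5, 27.3 and 34.9 CPM in the lowest, with all 3 intervals spanning 0. In the highest bin the hCD33m over Control ratio of Atf3 was −0.65 (−1.18 to −0.09). Atf4 was at 137, 150 and 170 CPM in the highest bin against 135, 132 and 106 CPM in the lowest, and only in Control was the interval (0.38 to 0.98) above 0. Within bins, Atf4 in hCD33m over Control was at 0.35 (0.06 to 0.64) in the lowest and at −0.28, −0.33 and −0.31 in the next 3, all intervals clear of 0, and hCD33M over Control was at 0.33, −0.25, −0.33 and −0.18, with the last spanning 0. Ddit3 likewise was above 0 only in Control (57.6 CPM against 39.2 CPM). Whether the libraries differ in this was not tested.

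**Figure D5:**
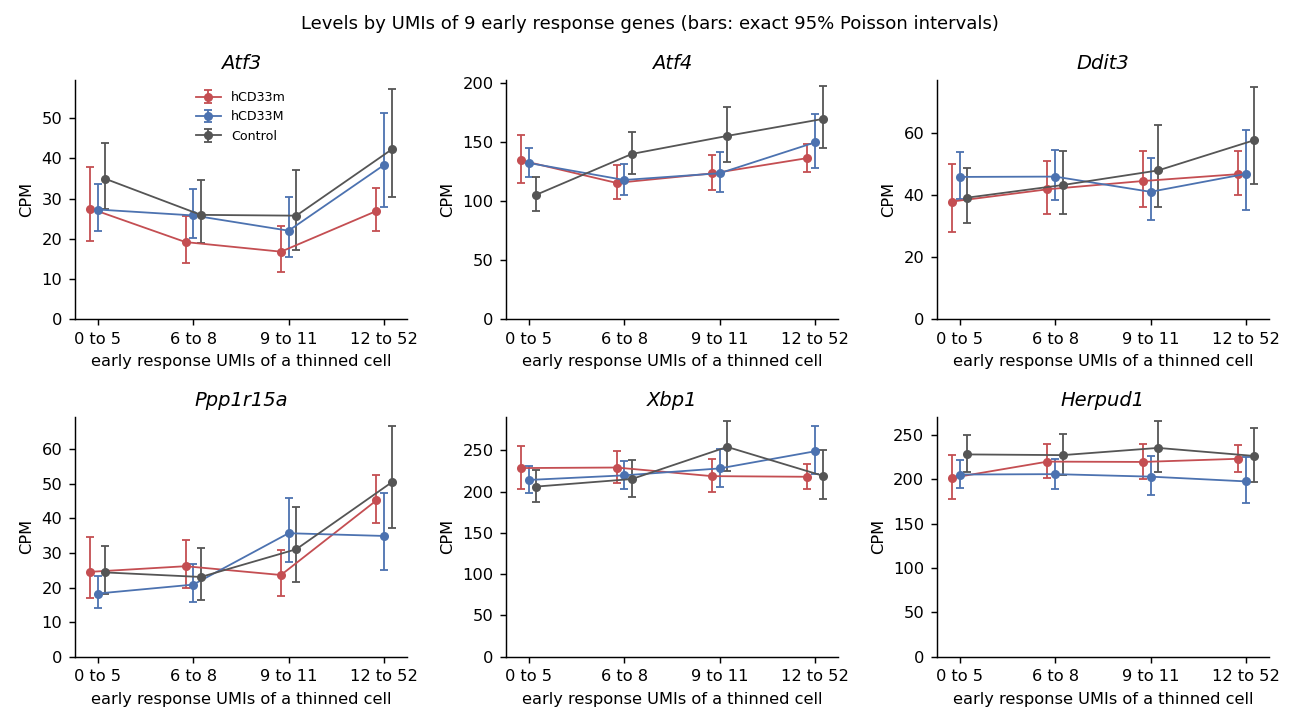
Level (CPM) of stress genes in thinned microglia-like cells by bins of their summed early response UMIs (0 to 5, 6 to 8, 9 to 11 and 12 to 52), for hCD33m, hCD33M and Control, with exact Poisson 95% intervals. Ppp1r15a is at 45.2, 34.9 and 50.4 CPM in the highest bin, above its 24.6, 18.3 and 24.4 CPM in the lowest, while Atf3 has no common trend.

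Members were also counted per cell. In cells thinned to 2000 UMIs, an Xbp1 UMI was found in 34.8%, 34.5% and 34.1% of hCD33m, hCD33M and Control cells (65.7%, 64.6% and 65.9% before thinning), and an Atf3 UMI in 3.99%, 4.57% and 5.10% (9.87%, 11.7% and 14.1% before thinning). Ddit3 was found in 8.09%, 8.49% and 8.31% of cells and Ppp1r15a in 6.06%, 4.66% and 5.37%. No cell type of these libraries is known to lack these genes. In BAM-like and monocyte-like cells together, which were deeper (median 8224, 8011.5 and 9638 UMIs, against 5281, 5184.5 and 5565 in microglia-like cells), the thinned shares were 35.1%, 35.8% and 30.9% for Xbp1 and 5.41%, 4.07% and 6.38% for Atf3, so the share alone does not tell expression from free RNA. None of the 8 members was seen in 28.0%, 28.6% and 27.0% of cells, and 4 members in 1.10%, 0.69% and 0.84%.

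Pairs of members were found in the same cell about as often as the product of their shares gives. The observed number over that product was 1.07, 1.03 and 1.09 for Atf4 with Ddit3, 1.16, 1.27 and 1.05 for Atf3 with Atf4 and 1.07, 0.96 and 1.03 for Xbp1 with Herpud1. Among member pairs for which the product gave at least 10 cells, the lowest was 0.54 (Atf5 with Xbp1 in Control, 7 cells) and the highest 1.44 (Atf3 with Ddit3 in Control, 18 cells). Atf3 with Ccl4 gave 3.999, 2.45 and 2.97 on the same measure, and Atf3 with Ccl3 gave 2.58, 1.52 and 2.22. The minimum of 10 was not applied to these: the product was 5.75, 6.12 and 7.75 cells for Ccl4, and 6.99 for Ccl3 in hCD33m. Member pairs under the minimum also reached high values, such as Atf3 with Atf5 in hCD33M at 2.43 on 6 cells. Ppp1r15a gave 1.34, 1.46 and 1.08 with Egr1 and 1.16, 1.15 and 1.61 with Fos, both early response genes.

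Among genes at 20 CPM or more in microglia-like cells of every library, those highest in cells with a UMI of a member over cells without one were named. They were ranked by the lowest of the 3 library ratios. For Atf3 these were Ccl4 (692, 604 and 1281 CPM in cells with Atf3 against 29.0, 33.2 and 31.5 CPM without), Ccl3, the maturation marker Cd83, Plekho2 and Id2. For Ddit3 the first was Mthfd2, an ATF4 target, at 49.9, 44.4 and 61.0 CPM with Ddit3 against 29.4, 28.7 and 39.4 CPM without, ahead of Zc3h12a, Bod1, Rangap1 and Ubxn2a. Atf4 had Ccl3, Ccl4, Myo1e, Vps13a and Ddt, and Herpud1 had Ccl4, Atf3, Ccl3, Cd83 and Pbdc1. Xbp1 had Izumo4, 1190007I07Rik, Hibch, Klc1 and Cacnb2, with lowest ratios of at most 0.27. Ppp1r15a had Dusp12, Rhobtb2, Lyrm9, Lysmd3 and Pcgf5, with lowest ratios between 0.49 and 0.53 over 293 hCD33m, 210 hCD33M and 159 Control positive cells. The Atf3 and Ppp1r15a lists rest on 100 or more positive cells per library, a minimum lowered after the counts were seen.

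Over 31 sums of a cluster in a library, Atf3 had its highest Pearson correlations with Eif4a1 (0.94), Cstb (0.92) and Hspd1 (0.92). Without the chemokine cluster, over 28 sums, these were 0.17, 0.06 and 0.42, so they rested on that cluster. In the same way Atf3 with Atf4 was at 0.75 with the cluster and −0.02 without it, Atf3 with Ddit3 at 0.73 and 0.04 and Atf4 with Ddit3 at 0.73 and 0.26, while Atf4 with Xbp1 was at −0.03 and 0.59. Atf4 was most like Psen2 (0.83 with the cluster, 0.61 without), Impact and Cct8, and Ddit3 most like Cct8 (0.80 and 0.40), Mettl1 and Impact. Ppp1r15a was most like Tbc1d24 (0.66), Ehbp1l1 and Ttf1, Xbp1 most like Mdp1 (0.76), Tet3 and Zbtb37, and Herpud1 most like Cyba (0.69), Fam26f and Trem2. The sums share libraries and differ in depth, and the values are a description.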

How the data were processed

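Brain cells sorted as CD11b+CD45(low)Cx3cr1+ were sequenced by 10x 3' single cell RNA sequencing. The authors aligned and counted the reads with Cell Ranger and STAR against mm10, took them into Seurat, and deposited raw UMI counts, 1 table per library, after keeping barcodes with over 200 genes and genes in at least 3 cells. The 3 tables held 32572995 (hCD33m), 28387611 (hCD33M) and 21529542 (Control) UMIs, and total depth sets the counting intervals. No column of values was left unmatched to a library.

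Cells with under 8000 genes, at least 200 UMIs and at most 10% mitochondrial UMIs were kept. With scanpy 1.11.5, 2000 variable genes, 15 components and 20 neighbours were used for Leiden clustering (igraph 0.11.9) at resolution 0.5. Clusters were called X-like from at least 3 markers of that type among their 10 leading genes. Others were called microglia-like where at least 3 microglial markers reached 0.5 times their level over all kept cells. Clusters of low UMI count with no microglial marker among the leading genes stayed unnamed. At resolution 0.5 these unnamed clusters still had 9 and 10 of the 10 microglial markers at that level. Resolution 1.0 was used for activation states, chosen after seeing that 0.5 merged chemokine and interferon cells. No doublet caller was run, and leaving out the 5% of cells with the most UMIs was tried instead. UMIs were summed over microglia-like cells of a library and divided by the total (CPM). Ratios have the exact 95% interval of a pair of Poisson counts. A gene counted as measured in a pair where the larger of its levels reached 5 CPM, and called means 1.5-fold. The ratio code was tested on simulated data.

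Named genes were all 8 members, from each list up to 2 highest and 2 lowest ratios per pair, the 3 genes most correlated with each member at 20 CPM or more over cluster sums of at least 200000 UMIs, and the 5 genes highest in cells with a UMI of a member over cells without. Those 5 were taken among genes at 20 CPM or more in every library. Other genes were named after their values were seen (Fos, Egr1, Ccl3 and Ccl4 with the members, other list genes past the fold, and the leading genes of clusters). The members and lists were chosen with earlier results of these data known. Alternatives were size factors from edgeR 4.0.16 (TMM) or from DESeq2 1.42.0 (median of ratios), other totals, cell filters, thinning, resolutions and minima. All computation was in Python 3.11.15 and R 4.3.3.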

Additional observations from a re-analysis of the deposited data

How the results depend on the processing

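Over 12 alternatives, 286 of the 288 values of the member ratios stayed within the counting interval of the reported value and 0 of the ratios clear of 0 changed sign. The exceptions came from thinning to 2000 UMIs, with −1.71 for Trib3 in hCD33m over Control and −0.17 for Herpud1 in hCD33M over Control. Atf3 ranged between −0.57 and −0.46 for hCD33m over Control and between −0.28 and −0.14 for hCD33M over Control, and Ppp1r15a between 0.35 and 0.43 for hCD33m over hCD33M. At the lower fold tried, 0.32 on the log2 scale, 1 member was lower in hCD33m than in Control and 1 was higher in hCD33m than in hCD33M, against 0 at 1.5-fold. The share of all genes past this lower fold is not given, so these counts do not set the members apart. The log2 ratio of Atf3 in the chemokine cluster over other microglia-like cells was 1.88 in hCD33m, 1.30 in hCD33M and 1.69 in Control at resolution 0.5, where that cluster also held interferon cells (441, 638 and 307 cells), an alternative chosen after seeing the data. At resolution 0.3 it was 2.16 in hCD33m and 2.18 in hCD33M, and with the stricter cell filter 2.31 in hCD33m, 2.11 in hCD33M and 3.35 in Control. In both of these settings the cluster had Cst7 among its leading genes. It held 250 hCD33m, 218 hCD33M and 53 Control cells at resolution 0.3, and 233, 174 and 69 with the stricter filter. What part the Cst7 cells have in these values was not tested. Shares of cells with a UMI moved with the thinning depth and the minimum by construction, in 23 of 24 cases at 1000 UMIs, 21 at 4000 UMIs and 24 at a minimum of 2 UMIs. No cluster at resolution 0.5 had over 60% of its cells from 1 library, so that alternative gave no value. At resolution 1.0, leaving out the clusters with over 60%, and leaving out the chemokine cluster, were added after seeing the data. No paired analysis was possible because each genotype had 1 library.

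With 1 library per genotype, intervals hold no spread between mice, preparations or sequencing runs. Depth limits Trib3 and Atf5 in every comparison and all members within small clusters. Sex and hCD33m cannot be told apart, and the libraries give no sample without sorting or inhibitors.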

Other observations

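Outside microglia-like cells, the stress genes were read in the other classes of each library. In BAM-like cells (127 hCD33m, 101 hCD33M and 84 Control cells) Atf3 was at 21.8, 22.2 and 24.97 CPM, Xbp1 at 183, 175 and 209 CPM and Herpud1 at 166, 165 and 180 CPM. In monocyte-like cells (28, 23 and 18 cells) Atf3 was at 44.9, 61.4 and 51.4 CPM, Atf4 at 79.9, 81.9 and 57.1 CPM and Herpud1 at 135, 98.3 and 85.6 CPM.

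Barcodes of poor quality were also read. Unnamed cells of low depth (572, 368 and 314 cells, with median depths of 1076.5, 1150.5 and 1597.5 UMIs in hCD33m, hCD33M and Control) had Atf3 at 7.39, 12.1 and 13.6 CPM, Xbp1 at 128, 145 and 105 CPM and Herpud1 at 138, 149 and 177 CPM. In barcodes above 10% mitochondrial UMIs (91, 54 and 65), Atf3 had 0, 2 and 0 UMIs and Herpud1 7, 20 and 11. Within thinned microglia-like cells, Xbp1 was at 206, 204 and 202 CPM in the highest of 4 bins of mitochondrial share, cut at the quartiles of all cells (2.56% to 9.39%), against 244, 245 and 224 CPM in the lowest (up to 1.42%). Ppp1r15a was at 38.6, 28.3 and 31.9 CPM in the highest of these 4 bins, against 29.5, 19.4 and 32.5 CPM in the lowest, and Atf3 at 32.1, 27.3 and 31.1 CPM against 19.8, 25.9 and 32.5 CPM.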
